A study of Homo sapiens and Mus musculus with 66 samples.

Results

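Keratin and keratin-associated protein (KAP) genes were followed through lists of chromatin regions at or near the nuclear lamina, the protein network under the inner nuclear membrane. The members were the protein-coding genes of GENCODE release 44 on hg19 whose symbol is KRT or KRTAP followed by digits. There were 149 of them among 20163 protein-coding genes, with 55 keratin and 94 KAP genes. The rule used symbols only and no region entered it, but members and lists were chosen with earlier results of these data known. The series mapped lamin-B1 by cTSA-seq, in which a peroxidase carried by antibodies to lamin-B1 deposits biotin on nearby chromatin, which is then sheared, pulled down with streptavidin and sequenced beside its input. K562, a human leukemia line, gave 1 list of called regions. HCT116, a human colorectal cancer line of epithelial origin, gave 9 lists: bulk cells, 1000000, 200000 and 50000 cells, 90m G1 and 180m G1 (cells blocked with nocodazole for 16 h by the labels, released for 90 or 180 min and sorted for G1 DNA content), and G1, S and G2 sorted from asynchronous cultures. No allele or other agent distinguishes the groups in the labels, and each cell type is represented by 1 line, so cell type and line cannot be told apart. Each list holds 1 set of region starts and ends per condition, without signal or depth, so a gene has 1 value per list, no spread between replicates can be given, and no test between lists was possible.

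Keratins form the intermediate filaments of epithelial cells as obligate pairs of a type I (acidic) and a type II (neutral to basic) protein. Simple epithelia such as the gut express KRT8, KRT18, KRT19 and KRT20, the epidermis expresses KRT5 with KRT14 in its basal layer and KRT1 with KRT10 above it, and the hair shaft has keratins of its own. KAPs are small matrix proteins, rich in cysteine or in glycine and tyrosine, that bind and cross-link hair keratin filaments. They are made in the cells of the growing hair shaft. Lamina-associated domains (LADs) are long, mostly gene-poor and mostly inactive stretches of chromatin, and tissue-restricted gene families are often found in them.

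A cluster was defined as a run of members on 1 chromosome with gaps of at most 1 Mb, and all 149 genes fell into 6 clusters. Chromosome 11 held 6 KRTAP5 genes in the first cluster and 5 in the second. Chromosome 12 held 27 keratin genes, which are the type II genes with the type I gene KRT18 at their end. Chromosome 17 held 62 genes, of which 28 were keratin genes of type I and related genes and 34 were KAP genes between them. Chromosome 21 held 33 KAP genes in the first cluster and 16 in the second, and the rule found 0 genes on chromosome 2. All 16 genes of the second cluster of chromosome 21 lay within TSPEAR, a gene of the ear and of tooth and hair development. KAP genes are short, with a median length of 0.466 kb in the first cluster of chromosome 21, where 32 of 33 had a single exon, whereas the keratin genes of chromosome 12 had a median length of 8.06 kb and none had a single exon.

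Promoters of 6 members are shown because they stand for the states that the lists gave. Each run covers 250 bases before the start of the gene as RefSeq gives it and 50 after it, on the strand of the gene, with the motif TATAAA in capitals. KRTAP24-1 (chr21:31655219-31655518, hg19, minus strand) is the first gene of the first cluster of chromosome 21 and lay inside regions in both lines. KRTAP11-1 (chr21:32253850-32254149, minus strand) is the next to last gene of that cluster and was also inside in both lines. KRTAP19-8 (chr21:32410746-32411045, minus strand) is the last gene of that cluster and was the single member with a different state in K562 and bulk HCT116 cells. KRTAP10-1 (chr21:45960029-45960328, minus strand) stands for the second cluster of chromosome 21, outside regions in every list. KRTAP5-3 (chr11:1629644-1629943, minus strand) stands for the first cluster of chromosome 11, inside a region in 90m G1 cells only. KRT8 (chr12:53320204-53320503, minus strand) is a keratin gene of simple epithelia, outside regions in every list, and its RefSeq start lies within the longer gene of the GENCODE annotation.
KRTAP24-1: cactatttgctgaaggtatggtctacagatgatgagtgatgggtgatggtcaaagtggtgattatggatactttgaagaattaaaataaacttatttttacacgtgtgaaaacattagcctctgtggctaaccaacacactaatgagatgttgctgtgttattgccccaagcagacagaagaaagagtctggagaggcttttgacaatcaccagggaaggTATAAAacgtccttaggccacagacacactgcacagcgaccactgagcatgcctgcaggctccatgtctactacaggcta
KRTAP11-1: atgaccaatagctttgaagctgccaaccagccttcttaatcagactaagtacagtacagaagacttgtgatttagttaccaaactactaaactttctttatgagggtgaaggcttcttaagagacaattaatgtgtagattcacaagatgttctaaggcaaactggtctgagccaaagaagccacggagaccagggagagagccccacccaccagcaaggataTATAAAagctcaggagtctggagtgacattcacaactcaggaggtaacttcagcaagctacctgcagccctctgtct
KRTAP19-8: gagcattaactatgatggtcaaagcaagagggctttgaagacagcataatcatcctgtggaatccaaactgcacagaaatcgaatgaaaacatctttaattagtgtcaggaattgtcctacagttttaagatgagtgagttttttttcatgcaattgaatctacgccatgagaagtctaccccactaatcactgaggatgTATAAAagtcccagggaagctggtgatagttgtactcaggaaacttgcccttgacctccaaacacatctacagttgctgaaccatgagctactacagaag
KRTAP10-1: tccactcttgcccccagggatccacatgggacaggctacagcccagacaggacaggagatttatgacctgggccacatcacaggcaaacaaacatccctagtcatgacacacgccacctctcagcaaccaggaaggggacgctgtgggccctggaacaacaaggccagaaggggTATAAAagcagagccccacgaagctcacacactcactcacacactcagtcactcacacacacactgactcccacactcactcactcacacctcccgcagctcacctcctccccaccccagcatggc
KRTAP5-3: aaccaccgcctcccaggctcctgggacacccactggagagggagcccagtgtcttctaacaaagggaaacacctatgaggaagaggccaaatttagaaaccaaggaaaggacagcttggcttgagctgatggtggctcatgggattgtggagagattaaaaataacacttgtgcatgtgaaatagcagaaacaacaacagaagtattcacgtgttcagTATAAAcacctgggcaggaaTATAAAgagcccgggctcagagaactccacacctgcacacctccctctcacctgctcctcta
KRT8: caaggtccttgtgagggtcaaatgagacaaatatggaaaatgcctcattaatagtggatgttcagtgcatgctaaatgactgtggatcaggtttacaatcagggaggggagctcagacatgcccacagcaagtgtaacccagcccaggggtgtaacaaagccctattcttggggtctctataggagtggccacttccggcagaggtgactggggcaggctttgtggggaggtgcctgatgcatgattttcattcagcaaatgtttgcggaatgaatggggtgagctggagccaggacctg

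These are RefSeq promoters of the GRCh38.p14 table whose 300 bases were found once and unchanged in hg19, except that of KRTAP19-8, which was read from hg19 at its GENCODE start and differs from the table at 1 base. The table held a promoter for 114 of the 149 members, and 110 of these had 1 exact match in hg19. TATAAA, the core of the TATA box at which the basal transcription machinery assembles, stood on the gene strand in 80 of the 114 promoters (70.2%) and in 7.33% of the 35116 promoters of the table. With both strands searched, it stood in 74.6% of the members' promoters and in 11.5% of all. Its first base lay 35 to 25 bases before the start in 43% of the members' promoters and in 2.17% of all. By cluster, it was found in 70% of 30 promoters in the first cluster of chromosome 21, which lay inside regions, and outside them in 73.3% of 15 in the second cluster of that chromosome and in 81.1% of 53 on chromosome 17. On chromosome 12 it was found in 28.6% of 14 promoters. The KRT8 run above holds none, but it was taken at a start inside the annotated gene. Which KRT8 start these cells use was not examined. The members' promoters had a median of 2 CpG dinucleotides, against 14 over all promoters. A match of letters is a description of the sequence and not of a bound factor.

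In K562 cells, 33 of the 149 members (22.1%) were inside a region, meaning that 80% or more of the gene's length lay in it, against 11% of all protein-coding genes. In bulk HCT116 cells 32 members (21.5%) were inside, against 11.1% of all genes. All of these genes belonged to the first cluster of chromosome 21, where 33 of 33 KAP genes were inside in K562 and 32 of 33 in bulk HCT116 cells. Among the other 180 protein-coding genes of chromosome 21, 13.9% were inside in K562 and 8.33% in bulk HCT116 cells. The other 5 clusters had no member inside in K562 or in bulk HCT116 cells. The share over the family was thus set by 1 cluster of 33 genes that shared 8 windows of 100 kb and are not independent. No member lay partly inside a region in any of the 10 lists, and every value was 0% or 100% of the length. The matrix of members by list shows these as solid blocks with a single step at the end of the first cluster of chromosome 21.

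**Figure D1:**
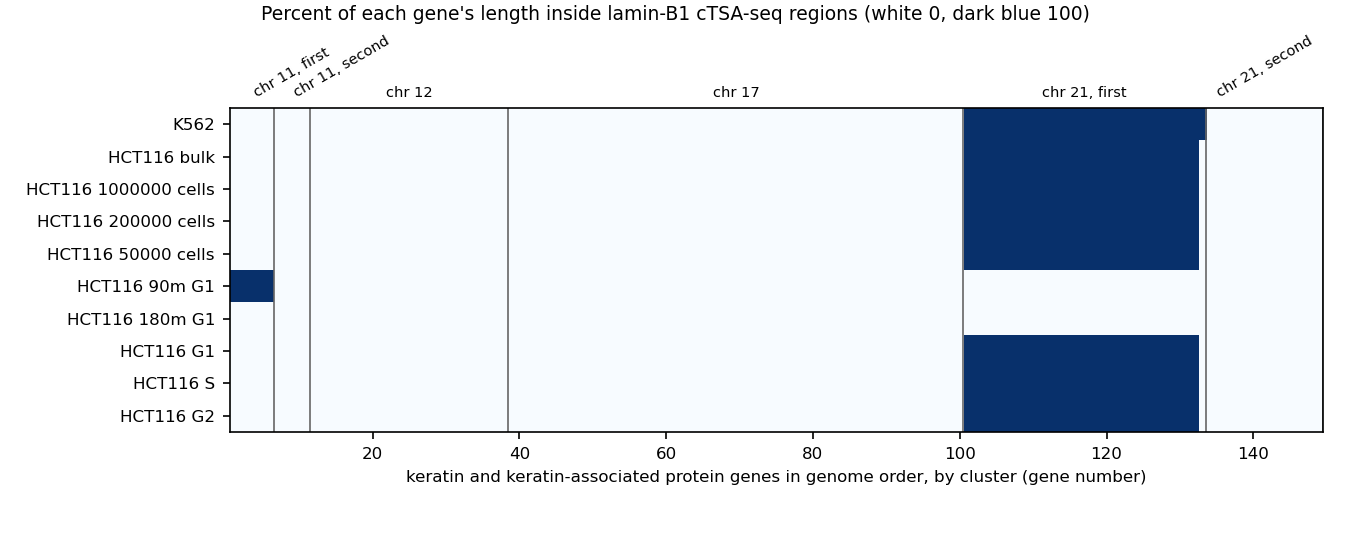
Percent of the length of each of the 149 genes (columns, genome order, clusters separated by vertical lines) inside regions of each of the 10 lists (rows), white for 0% and dark blue for 100%. The first cluster of chromosome 21 is filled in 8 lists and empty in 90m G1 and 180m G1, its last gene is filled in K562 only, and the first cluster of chromosome 11 is filled in 90m G1 only.

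Compared gene by gene between K562 and bulk HCT116 cells, 32 members (21.5%) were inside in both lines, against 3.82% of all protein-coding genes. 1 member (0.671%) was inside in K562 and not in bulk HCT116 cells, against 7.22% of all genes. 0 members were inside in bulk HCT116 cells and not in K562, against 7.27% of all genes. The remaining 116 members (77.9%) were inside in neither line, against 81.7% of all genes. The epithelial line and the leukemia line thus had the same call at 148 of the 149 genes (99.3%), keratin genes of simple epithelia included. Over all protein-coding genes the call was the same for 85.5%. Members of a cluster share windows and are not independent, so the 148 genes are not separate cases of the same call. Of the 771 protein-coding genes inside in both lines, the 32 KAP genes made up 4.15%. In the published TSA-seq regions of K562, an earlier form of the assay that needs more cells, 32 members were inside as well, against 9.21% of all genes. By the paper, the published TSA-seq used a different antibody, to lamin-B, so the lists differ in antibody as well as in method.

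The region over the first cluster of chromosome 21 was a single one in each list that called it. In K562 it ran over chr21:31400001-32700000, 1.3 Mb long, from 253.6 kb before the first KAP gene to 289.2 kb after the last. In bulk HCT116 cells it ran over chr21:30900001-32400000, 1.5 Mb long, from 753.6 kb before the first gene to 10.8 kb short of the end of the last. The region of the HCT116 line therefore began earlier and ended earlier than that of K562. The 1000000, 200000 and 50000 cell lists and the G1 list gave the same start and end as the bulk list. In S phase the end lay 100 kb earlier, at chr21:30900001-32300000, and in G2 the start also lay 100 kb later, at chr21:31000001-32300000. These moves are of 1 window each, the smallest step the lists can show. The TSA-seq region of K562, chr21:31300001-32300000, ended at the same window as in S and G2. The plot of regions over this cluster shows the shift toward the left in HCT116 cells.

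**Figure D2:**
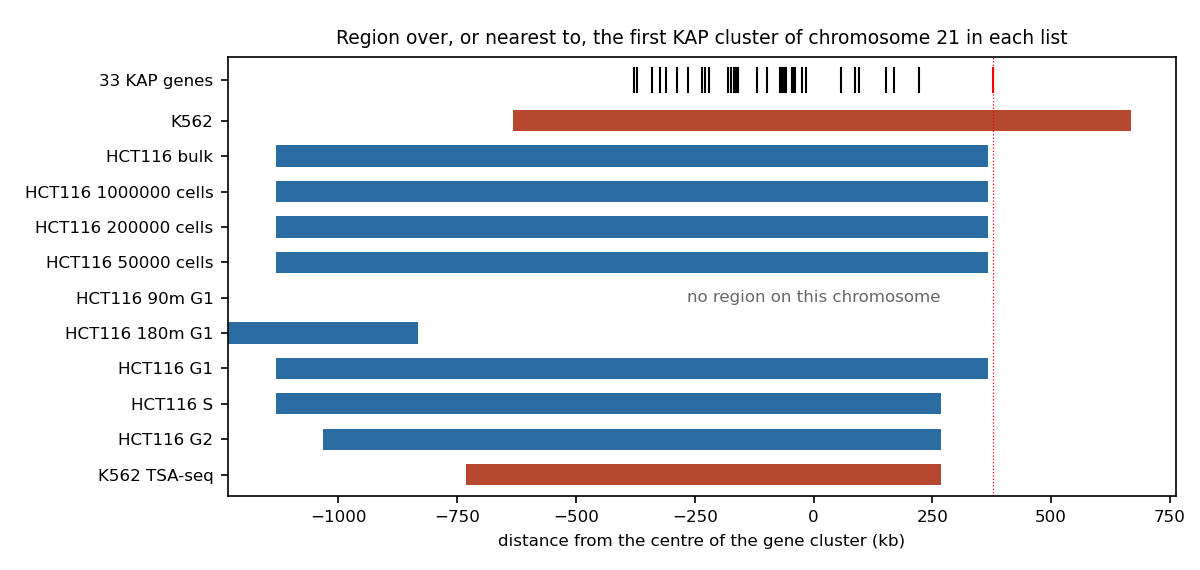
Region over, or nearest to, the first KAP cluster of chromosome 21 in each list (bars, K562 red, HCT116 blue) against the distance from the centre of the cluster in kb; ticks at the top mark the 33 KAP genes and the dotted line KRTAP19-8. The end of the cluster carrying KRTAP19-8 lies inside the K562 cTSA-seq region and just past the end of the HCT116 regions, and the 180m G1 region lies 453.6 kb before the first gene.

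KRTAP19-8 (ENSG00000206102.2_7, chr21:32410478-32410795) encodes a small glycine and tyrosine rich KAP. It was inside 100% of its length in K562, with its midpoint 289.4 kb from the nearest border. It was at 0% in every HCT116 list, and also at 0% in the TSA-seq regions of K562, so that the difference between the lines was not found with that list for K562. Its midpoint lay 10.6 kb outside the region in bulk, 1000000, 200000, 50000 and G1 cells, which is less than the width of 1 window, and 110.6 kb outside it in S and G2 cells. The gene stands apart from its cluster, since 156.6 kb separate it from its neighbour KRTAP11-1, the widest gap between neighbours there. KRTAP11-1, a high-sulfur KAP gene at chr21:32252963-32253899, was at 100% in K562 and in 7 of the 9 HCT116 lists, and 0% in 90m G1 and 180m G1. The 32 genes from KRTAP24-1 (chr21:31653627-31655268) to KRTAP11-1 shared 1 state within each list, with KRTAP11-1 146.6 kb from the bulk HCT116 border. Around the cluster, the claudin genes CLDN17 and CLDN8, which encode tight junction proteins, were inside in both lines. GRIK1, a glutamate receptor gene before them, was at 100% in bulk HCT116 cells and at 0% in K562, and TIAM1, the gene after KRTAP19-8, was at 47.4% in K562 and at 0% in bulk HCT116 cells.

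The number of cells did not move the count. The 1000000, 200000 and 50000 cell lists each had 32 members inside (21.5%), against 4.89%, 5.08% and 5.98% of all protein-coding genes. The labels hold 1 pull-down library for 1000000 cells and 2 for each of the other 9 lists, although the 1000000-cell list is also named a consensus. The bulk list covered 834.2 Mb and the other 3 covered 656.1, 677.6 and 706.2 Mb, and the region over the KAP cluster had the same borders in all of them.

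The stages after mitosis differed from the asynchronous stages at this cluster. In 90m G1 cells 0 of its 33 genes were inside, and in 180m G1 cells 0 of 33. In G1, S and G2 the count was 32 of 33 at each stage, which is 21.5% of all members against 4.81%, 5.38% and 4.55% of all protein-coding genes. In all, 32 members (21.5%) were inside in G1, S and G2 but in neither 90m G1 nor 180m G1. Over all genes 0.655%, or 132 genes, held this state. It was not among the planned comparisons. The 32 genes lie in a single region of each list and are not independent. KAP genes made up 24.2% of these 132 genes. The other genes of chromosome 21 numbered 180, with 18 inside in G1, 16 in S and 11 in G2. Of the 180, 7 (3.89%) held the state. Chromosome 21 as a whole followed the same order: the 90m G1 list had no region on it, the 180m G1 list had 3 regions over 3.5 Mb, and the G1 list had 9 regions over 16.3 Mb. The part of the whole chromosome in the values of the KAP cluster was not tested. The nearest 180m G1 region was chr21:30800001-31200000, 453.6 kb before KRTAP24-1.

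The 90m G1 list held 6 members (4.03%), against 17.2% of all protein-coding genes, and they were the 6 KRTAP5 genes of the first cluster of chromosome 11. KRTAP5 genes encode ultra-high-sulfur KAPs of the hair cuticle. The 6 genes, from KRTAP5-1 (chr11:1605572-1606513) to KRTAP5-6 (chr11:1718425-1718985), were at 100% in 90m G1 and at 0% in each of the other 9 lists, a state that 10.9% of all genes held. The region was chr11:1-4700000, which begins at the chromosome end, is 4.7 Mb long and held 111 protein-coding genes. In K562 the 6 KRTAP5 genes lay in a stretch depleted by both methods. In 180m G1 cells 0 members of any cluster were inside, against 5.3% of all genes, and the nearest region lay 2681 kb from the first cluster of chromosome 11. The second KRTAP5 cluster of chromosome 11 was at 0% in all 10 lists, and its nearest 90m G1 region was 338.3 kb away. Across all clusters, 110 members (73.8%) were inside in none of the 10 lists, against 69.5% of all genes.

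**Figure D3:**
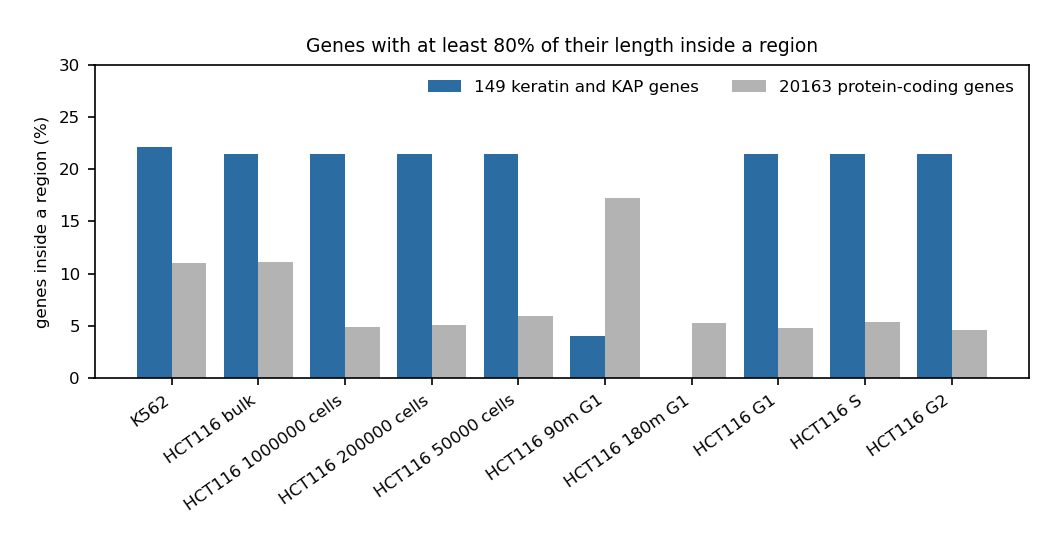
Share in percent of the 149 members (blue) and of all 20163 protein-coding genes (grey) lying inside regions (80% or more of the length), for each of the 10 lists. The members' share is 21.5% or 22.1% in 8 lists, 4.03% in 90m G1 and 0 in 180m G1, where the share of all genes is 17.2% and 5.3%.

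Keratin genes proper were inside in no list: 0 of 55 in each of the 10. Over all protein-coding genes the share ran from 4.55% in G2 to 17.2% in 90m G1. The 55 genes lie in the clusters of chromosomes 12 and 17 and are not independent. The simple epithelial keratins were all at 0% in both lines. KRT8 (chr12:53290971-53343738) and its partner KRT18 (chr12:53342655-53346690) overlap at their ends in the annotation, and their midpoints lay 5083 and 5055 kb from the nearest K562 region. From the nearest bulk HCT116 region they were 14820 and 14840 kb away. KRT7, found in ducts and simple epithelia, was also at 0% in all lists, as were KRT19 and KRT20 of chromosome 17, the latter a keratin of the gut epithelium. The epidermal pairs KRT5 with KRT14 and KRT1 with KRT10 were at 0% in all lists. Chromosome 12 as a whole was not free of regions, since 8.39% of its other 1013 genes were inside in K562 and 8.39% in bulk HCT116 cells. On chromosome 17, 0.355% of the other 1127 genes were inside in K562 and 0.621% in bulk HCT116 cells. The keratin clusters were far from any region in both lines, 5053 kb in K562 and 14060 kb in bulk HCT116 cells for chromosome 12, and 10020 and 6311 kb for chromosome 17. In the 1000000-cell list the nearest region to the chromosome 12 cluster was 2253 kb away, nearer than in K562, so these distances gave no order of the lines.

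By protein class, the high-glycine-tyrosine KAP genes were inside most often, with 22 of 22 in K562 and 21 of 22 in bulk HCT116 cells. Over all protein-coding genes the shares were 11% and 11.1%. Genes of a class that lie in 1 region are not independent. Of the 39 high-sulfur KAP genes, 11 were inside in both lines, and these 11 are the members of the class in the first cluster of chromosome 21. Of the 32 ultra-high-sulfur KAP genes, 0 were inside in K562 or in bulk HCT116 cells, and 6 were inside in HCT116 90m G1 cells. All 22 high-glycine-tyrosine genes lie in that same cluster, so a protein class and a place in the genome cannot be told apart here. KRTAP29-1 belonged to no class and was at 0% in all lists.

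K562 also has a list of stretches depleted by both cTSA-seq and TSA-seq, named shared nonLADs, so that genes outside LADs can be split further. Of the members, 56 (37.6%) were inside shared nonLADs, against 54.6% of all protein-coding genes, and 60 (40.3%) were in neither a cTSA-seq region nor a shared nonLAD, against 34.4% of all genes. All 60 belonged to the keratin clusters. On chromosome 17, 45 of 62 genes, from KRT12 to KRT38, were in neither, and 17 were inside shared nonLADs. Of the other 1127 genes of that chromosome, 91.7% were inside shared nonLADs and 0.355% inside K562 regions. Among the 62 members these shares were 27.4% and 0%. The flanking shared nonLADs were chr17:33200001-39000000 and chr17:39600001-49300000, and the gap between them held all 34 KAP genes of the cluster. On chromosome 12, 15 of 27 genes, from KRT7 to KRT72, were in neither and 12 were inside, against 58.2% of the other genes of the chromosome inside. The gap ran between chr12:52200001-52600000 and chr12:53000001-54900000. Of the epidermal pairs, KRT1 and KRT10 were both inside shared nonLADs at 100%, while KRT14 was at 100% and its partner KRT5 at 0%. Of the simple epithelial keratins, KRT8, KRT18 and KRT19 were at 100% and KRT7 and KRT20 at 0%. All 6 type II hair keratin genes were in neither state, as were 8 of the 11 type I hair keratin genes. The 11 KRTAP5 genes and the 16 genes within TSPEAR were all inside shared nonLADs.

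**Figure D4:**
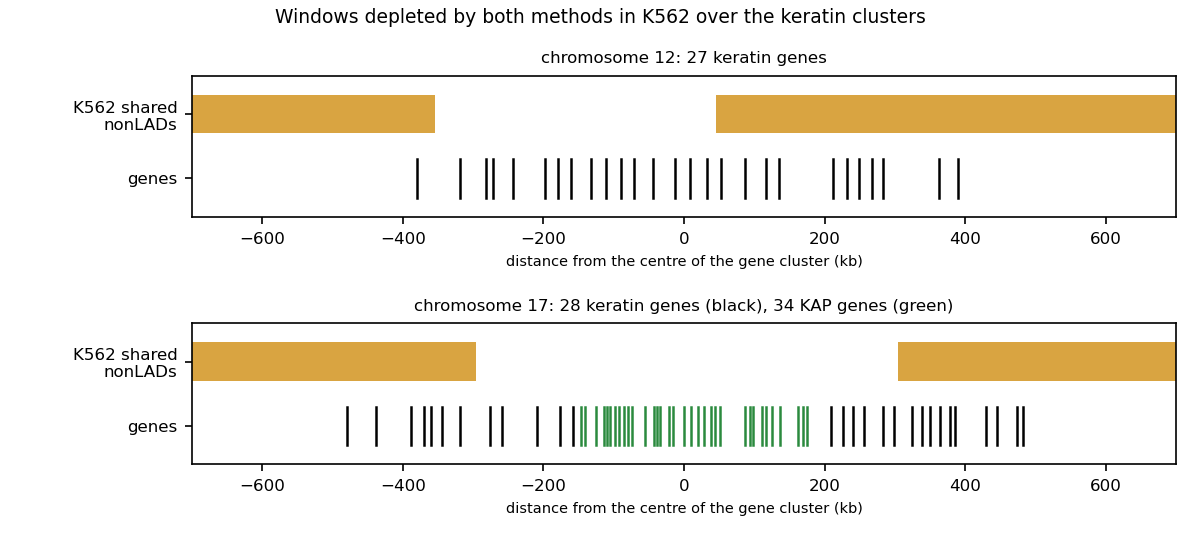
Shared nonLADs of K562 (yellow bars) over the keratin clusters of chromosomes 12 and 17, with genes as ticks (keratin genes black, KAP genes green), against the distance from the centre of each cluster in kb. All 34 KAP genes of chromosome 17 and the middle part of both keratin clusters lie in the gaps between the bars.

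Base composition of the hg19 windows differed between the clusters. The 9 windows of 100 kb that the span of the first cluster of chromosome 21 touches had a median GC content of 36.7%, from 36% to 42%, near the median of 37.4% for windows inside K562 regions and 38.7% for windows inside bulk HCT116 regions. The highest of the 9, 42%, was the window with KRTAP19-8, which was inside in K562 and outside in bulk HCT116 cells. The 10 windows of chromosome 17 had a median of 40.4%, from 39.3% to 52.2%, and the 9 of chromosome 12 had 49.1%. The first cluster of chromosome 11 stood at 51.8%, the second at 47.3%, and the second of chromosome 21 at 51.6%. Over the genome the median was 39.8%, and for shared nonLADs of K562 it was 46%. The windows of the first cluster of chromosome 21 held 3.67 protein-coding genes on average, windows inside K562 regions 0.192 and all windows 0.702. The cluster windows were picked because they hold the members, so their high gene density was set by that choice. The genes themselves were richer in GC than their surroundings, with a median of 47.6% over the 33 KAP genes. These are values of the reference sequence, and their part in the calls was not tested.

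**Figure D5:**
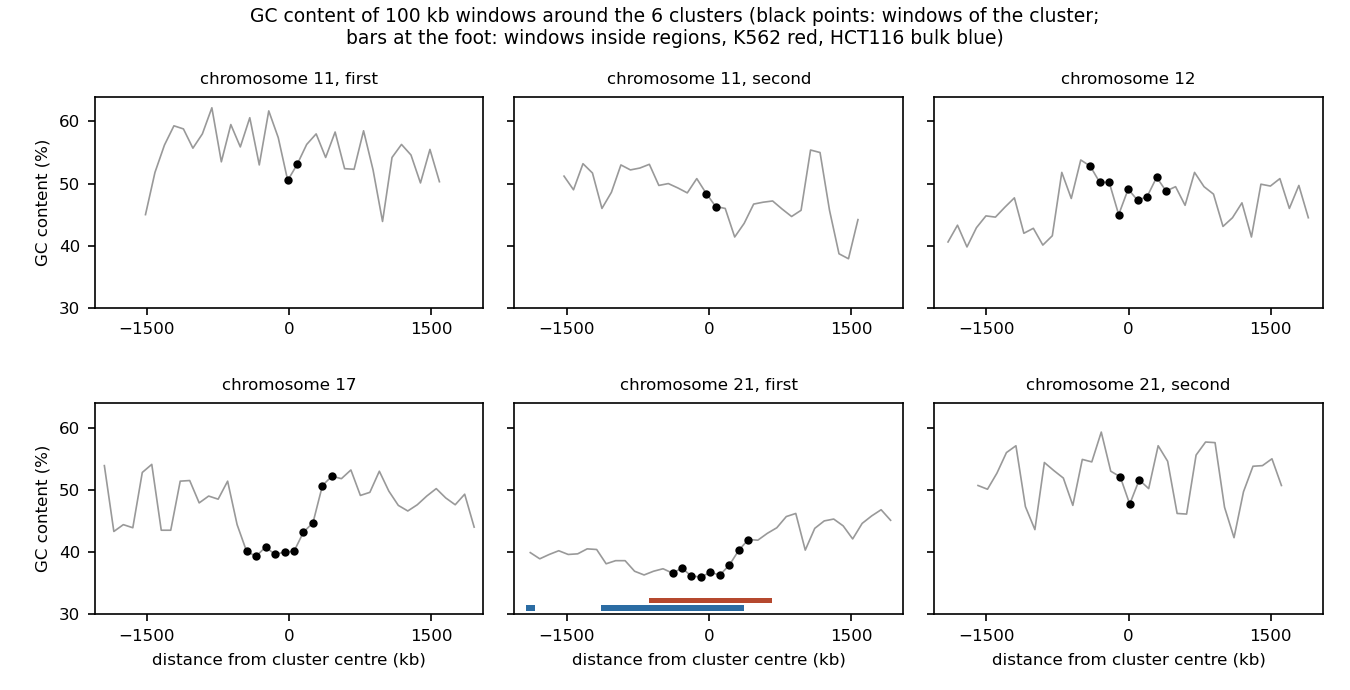
GC content in percent of 100 kb windows of hg19 (grey line) against the distance from the centre of each of the 6 clusters in kb, with windows of the cluster as black points and windows inside regions as bars at the foot (K562 red, bulk HCT116 blue). The first cluster of chromosome 21 lies in a stretch of 36% to 42% GC and is the single cluster with bars over it.

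The other genes of the keratinised epithelium that were examined lay outside regions in K562 and in bulk HCT116 cells. The genes of the epidermal differentiation complex lie in a single stretch of chromosome 1, and the DSC and DSG desmosome genes lie together on chromosome 18. Genes of such a stretch are not independent. Of 39 genes of the epidermal differentiation complex, which encode cornified envelope and filaggrin family proteins, 0 were inside in K562 and 0 in bulk HCT116 cells, and 2 (5.13%) were inside shared nonLADs. Of 14 desmosome genes, whose proteins anchor keratin filaments at cell junctions, 0 were inside in K562 and 0 in bulk HCT116 cells. In HCT116 90m G1 cells 2 of them (14.3%, PKP1 and PKP3, plakophilins) were inside, and 4 (28.6%) were inside shared nonLADs of K562. Of 3 transglutaminase genes, whose enzymes cross-link the cornified envelope, 0 were inside in either line and 2 (66.7%) were inside shared nonLADs. Over all protein-coding genes the shares were 11% in K562, 11.1% in bulk HCT116 cells, 17.2% in 90m G1 and 54.6% in shared nonLADs. The median percent of length inside K562 regions and bulk HCT116 regions was 0 for each of these gene sets, for the members and for all protein-coding genes. RNA levels of these genes were not analysed here, so that no call was set against expression and the labelled cell types were not checked against marker RNA.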

How the data were processed

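Lamin-B1 cTSA-seq lists were used for K562 (1 list) and HCT116 (9 lists), with 4 lists comparing K562 cTSA-seq with published TSA-seq. The authors aligned reads to hg19 with Bowtie2 2.3.2, removed duplicates, counted reads in windows with bedtools 2.26.0, compared pull-down with input as z-scored log2 ratios, fitted a 3-state Hidden Markov Model for the calls and intersected the calls of replicates. How the replicates of the 90m G1 and 180m G1 lists were merged is not stated in the list names. Each list deposited by the authors names the chromosome of each region with its first and last bp and no other measurement, and all 4326 regions of the 10 lists start on a grid of 100 kb. Depth is unknown, so no interval or floor was computed.

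Genes came from GENCODE release 44 lifted to hg19. A gene was inside where at least 80% of its length lay in regions. Distances were taken from gene midpoints, or from cluster ends, to the nearest border. Background shares used all 20163 protein-coding genes on chromosomes 1 to 22, X and Y. Named genes were those whose state differed between K562 and bulk HCT116 cells or between G1, S and G2, those partly inside, and KRT7, KRT8, KRT18, KRT19, KRT20, KRT5, KRT14, KRT1 and KRT10. KRTAP11-1, KRTAP24-1, KRTAP10-1, KRTAP5-3 and the neighbouring genes were named after their values were seen. LOR was matched by its current symbol LORICRIN. The members and lists were chosen with earlier results of these data known. Overlap code was tested on simulated lists. Calculations used Python 3.11.15 and numpy 2.4.6, figures matplotlib 3.10.9. The alternatives were other shares of the length, the start site, joined, longer or wider regions, other lists, all gene types and leaving out each cluster.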

Additional observations from a re-analysis of the deposited data

How the results depend on the processing

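No paired analysis was possible because each condition has a single list with no values per replicate, and for the same reason no replicate could be left out. Of 140 recalculated counts, 125 stayed within 1.5 times the reported count and 114 were identical to it. Many of these could not differ. No member lay partly inside a region, so other shares of the length and the start site could not move a count inside regions. Leaving out a cluster with no member inside could not move it either. The tally is therefore no measure of robustness. With members of all gene types, pseudogenes included, 324 genes were counted in place of 149, so the counts rose. The number inside was 82 in K562 and 64 in bulk HCT116 cells. It was 57, 59 and 59 in the 1000000, 200000 and 50000 cell lists. It was 23 in 90m G1, 18 in 180m G1, and 59, 60 and 57 in the G1, S and G2 lists. The same shares over all genes of all types were not computed. The 1 member inside in K562 only became 0 with the published TSA-seq regions, with regions widened by 100 kb at each end, and without the first cluster of chromosome 21. Without that cluster the members inside in both lines were 0, and without the chromosome 17 cluster those inside in neither were 54. KRTAP19-8 was inside, coded 1, in bulk, 1000000, 200000, 50000 and G1 cells when regions were widened. Among 21 alternatives chosen after seeing the data, 19 stayed within 1.5 times. The other 2, with all gene types, gave 121 of the 324 in neither K562 state and 121 in shared nonLADs.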

Other observations

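Copies of KRT8 and KRT18 that arose by retrotransposition lie outside the keratin clusters and were described apart from the members. The annotation held 118 processed pseudogenes of KRT8 and KRT18 on 23 chromosomes. Of these, 39 (33.1%) were inside regions in K562 and 23 (19.5%) in bulk HCT116 cells, against 30.5% and 22.2% of all 10585 processed pseudogenes. By state, 15 copies were inside in both lines, 24 in K562 only, 8 in bulk HCT116 cells only and 71 in neither. In 90m G1 cells 13.6% were inside, in 180m G1 cells 14.4%, in G1 15.3%, in S 16.1% and in G2 13.6%. The shares over all processed pseudogenes were 12.9%, 14.1%, 15%, 16% and 13.6% in the same order. The parent genes KRT8 and KRT18 were at 0% in all of these lists. No difference was tested, since each condition has a single list.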
